A study of Homo sapiens with 16 samples.

Results

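The phorbol ester TPA was set against epidermal growth factor (EGF) as a stimulus of human skin fibroblasts treated with the kinase inhibitor H89. Total long RNA had been sequenced from CCD-1070Sk, an established fibroblast line from normal human skin, made quiescent by serum starvation. The comparison holds 4 of the 16 libraries in the series, chosen by their treatment labels alone. The TPA+H89 group (2 libraries) received 10 µM H89 for 30 min and TPA at 100 nM for 1 h. The EGF+H89 group (2 libraries) received the same H89 treatment and EGF at 30 ng/ml for 1 h. Serum starvation and H89 were common to both groups. TPA alone (2 libraries), EGF alone (3 libraries), H89 alone (3 libraries) and untreated control (4 libraries, of which 2 hold the same counts and were used once) are given only where they set a level beside the 4. The labels record H89 alone at 0 h, so its time in the inhibitor may differ from that of cells that also had a mitogen. The labels also allow for H89 being kept on during the mitogen or given only before it, without tying either to a library. Nothing in the labels says that the libraries of a group came from separate cultures. All groups of the series were fitted together, so the spread behind each p-value is that between libraries within every group. It is not that of the 4 libraries alone, and it may be technical.

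TPA stands in for diacylglycerol and switches on conventional and related protein kinase C enzymes, whereas EGF acts through its receptor tyrosine kinase and the adaptors that load RAS. Both routes meet at the ERK kinases, which phosphorylate ternary complex factors at the serum response element and activate RSK and MSK kinases, which in turn act on CREB, ATF1 and histone H3. H89 blocks protein kinase A and also MSK1 and MSK2, so the comparison asks how the mitogens differ in cells given such an inhibitor. RNA counts do not show how far any kinase was inhibited.

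The 4 libraries differed in depth and kind. TPA+H89 1 held 7527026 counts, the lowest total of the series, and TPA+H89 2 held 70470733, against 24047897 in EGF+H89 1 and 39091712 in EGF+H89 2. Counts at the ribosomal RNA entries RNR1 and RNR2 made up 12.0% of TPA+H89 1 and 24.8% of EGF+H89 1 and were 0 in TPA+H89 2 and EGF+H89 2, so each group had 1 library of each kind. These pairs are called below the pair with rRNA counts and the pair without. RMRP, a small structured RNA, took 13.4% of the counts in TPA+H89 1 and 2.46% in TPA+H89 2, against 1.75% in EGF+H89 1 and 3.33% in EGF+H89 2. The 20 fibroblast matrix and identity genes summed to 38159 and 56228 CPM (counts scaled to a common library size of 1e+06) in TPA+H89 and to 40839 and 54080 CPM in EGF+H89. The 10 keratinocyte markers summed to 18.6 and 15.9 CPM in TPA+H89 and to 10.4 and 22.8 CPM in EGF+H89, with KRT14 and KRT6A at 0 in all 4, and endothelial, melanocyte and leukocyte markers summed to less than that in each of the 4. Fewer cells of a kind and less RNA per cell cannot be told apart in such bulk samples.

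No gene differed between TPA+H89 and EGF+H89 at an adjusted p of 0.05. With p-values adjusted by the Benjamini-Hochberg method, edgeR's quasi-likelihood test called 0 of 18575 genes (0%), and the lowest adjusted p was 1. At an unadjusted p under 0.05 the same test had 412 genes (2.22%), 260 higher in TPA+H89 (1.4%) and 152 lower (0.818%). DESeq2 called 0 genes (0%), with 520 at an unadjusted p under 0.05 (2.8%) and a lowest adjusted p of 0.312. With a term for the split by rRNA counts, edgeR again called 0 (0%), with 889 genes at an unadjusted p under 0.05 (4.79%). The median standard error of a log2 fold change was 0.43 without that term and 0.34 with it. Both TPA+H89 libraries lay above both EGF+H89 libraries at 3360 genes (18.1%) and below both at 3425 genes (18.4%). The values that follow are therefore levels with their spread, none of which passed the adjusted test. Levels are CPM after scaling by edgeR's TMM method (trimmed mean of M values), and fold changes are log2 of TPA+H89 over EGF+H89 with the standard error (SE) from the fit.

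Several immediate-early genes stood higher in TPA+H89 than in EGF+H89 in both kinds of library. DUSP2, a nuclear phosphatase that removes phosphate from ERK, stood at 49.9 and 37.6 CPM in TPA+H89, against 4.70 and 4.90 CPM in EGF+H89. Its log2 fold change was 3.19 ± 0.83 (SE, n = 2 each), and the pair with rRNA counts gave a log2 difference of 3.40 where the pair without gave 2.93. The 2 groups were far apart at this gene, and the 3 libraries with H89 alone lay below both, at 0.313, 0.602 and 1.24 CPM. NR4A3, an orphan nuclear receptor induced within an hour by many mitogens, stood at 15.7 and 21.2 CPM in TPA+H89, against 5.83 and 5.03 CPM in EGF+H89. Its log2 fold change was 1.77 ± 0.50, and H89 alone gave 2.35, 3.85 and 2.27 CPM. Again the groups did not overlap, and EGF+H89 lay only a little above H89 alone.

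The AP-1 genes FOSB and FOS followed the same order with larger standard errors, which take in the spread within all groups of the series. FOSB stood at 69.6 and 81.8 CPM in TPA+H89, against 7.64 and 15.2 CPM in EGF+H89, a log2 fold change of 2.73 ± 1.39. FOS stood at 920 and 582 CPM in TPA+H89, against 237 and 214 CPM in EGF+H89, a log2 fold change of 1.74 ± 1.07. In H89 alone FOSB stayed at or below 0.890 CPM and FOS at or below 41.8 CPM, so both genes were above that level in all 4 libraries with a mitogen. NR4A1, the close relative of NR4A3, stood at 66.3 and 248.9 CPM in TPA+H89, against 37.8 and 38.3 CPM in EGF+H89. Its log2 difference was 0.81 in the pair with rRNA counts and 2.70 in the pair without, so TPA+H89 2 carried most of it. Its relative NR4A2 stood at 2.00 and 1.68 CPM in TPA+H89, against 0.678 and 0.791 CPM in EGF+H89. EGR1, a zinc finger factor of the serum response, stood at 747 and 391 CPM in TPA+H89, against 231 and 282 CPM in EGF+H89. Its groups did not overlap, but the 2 TPA+H89 libraries differed from each other by more than the nearest libraries of the groups did, and its log2 fold change was 1.15 ± 0.78.

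**Figure D1:**
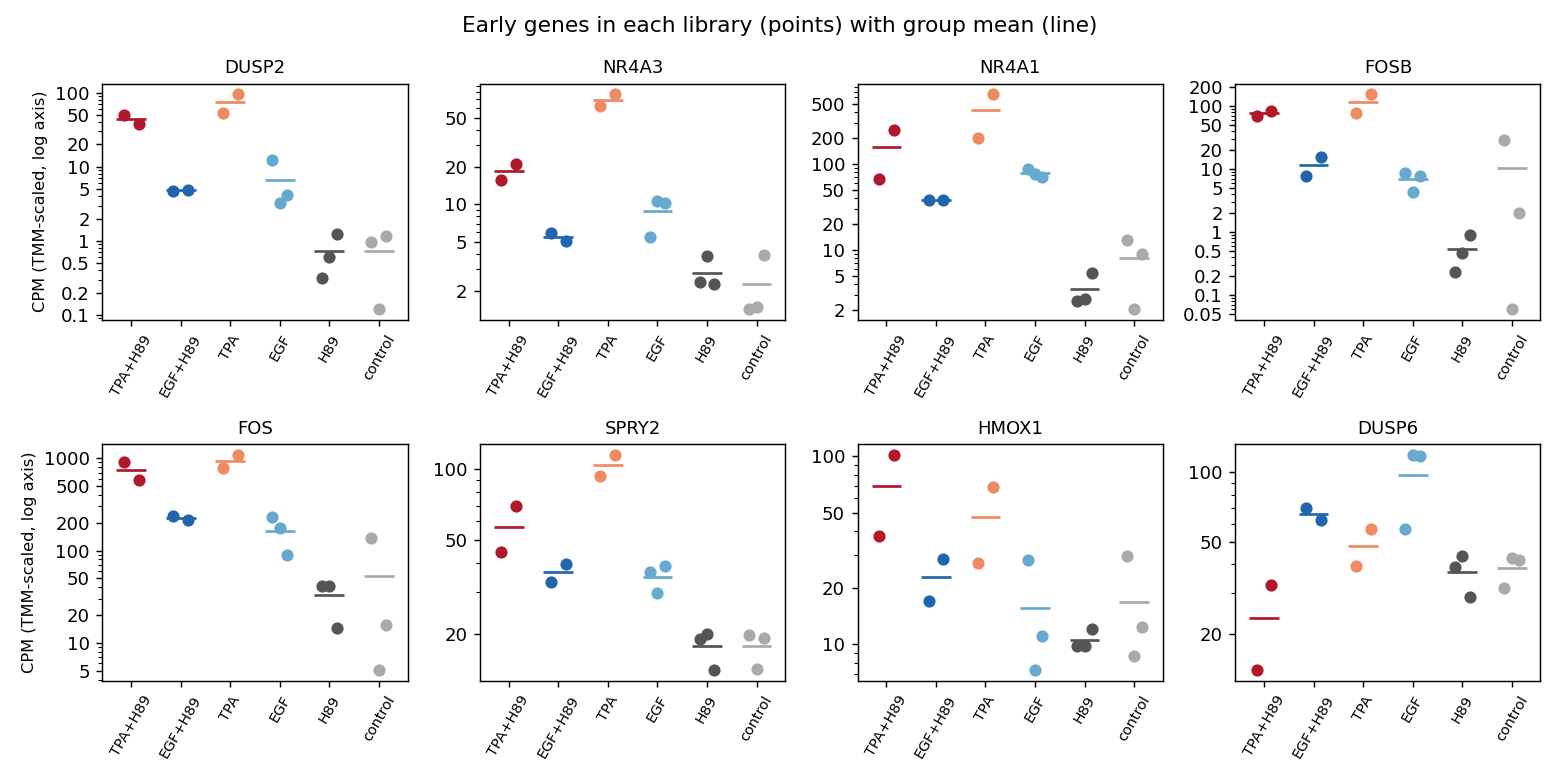
Each panel plots 1 gene in every distinct library as a point, in TMM-scaled CPM on a log axis, with a line at the group mean and groups on the horizontal axis. The TPA+H89 points lie above the EGF+H89 points for DUSP2 (49.9 and 37.6 against 4.70 and 4.90 CPM) and for the other genes shown except DUSP6, where they lie below.

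Other early transcription factors overlapped between the groups or were set apart by smaller or less even gaps. JUNB stood at 416 and 1266 CPM in TPA+H89, against 755 and 876 CPM in EGF+H89, so the EGF+H89 values lay between those of TPA+H89. JUN stood at 253 and 144 CPM in TPA+H89, against 213 and 211 CPM in EGF+H89, and MYC at 51.2 and 68.7 CPM in TPA+H89, against 51.6 and 47.8 CPM in EGF+H89. Neither gene separated the groups. EGR2 stood at 265 and 365 CPM in TPA+H89, against 243 and 240 CPM in EGF+H89, a log2 fold change of 0.39 ± 0.56. EGR3 stood at 55.2 and 189 CPM in TPA+H89, against 49.0 and 49.3 CPM in EGF+H89, and ATF3 at 41.5 and 104 CPM in TPA+H89, against 43.2 and 40.8 CPM in EGF+H89. For both, the higher TPA+H89 library was the one without rRNA counts, and EGR3, like EGR2, lay higher in both TPA+H89 libraries while ATF3 overlapped. Of the 24 immediate-early factors, 0 were called, 10 lay higher in both TPA+H89 libraries and 2 lower, beside 18.1% and 18.4% of all tested genes. Their median log2 fold change was 0.35, where the median of all tested genes was 0.00.

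The promoters of NR4A3, FOSB, FOS and DUSP2, and of DUSP6, which lay on the other side, are printed to show CREB, AP-1, EGR and SRF motifs. Other early genes also separated the groups, among them NR4A1, NR4A2, EGR1, EGR2, EGR3 and SPRY2, and their promoters are not printed. Each run is the 200 bases before the transcription start, 5′ to 3′ on the gene's strand, from RefSeq on GRCh38.p14, with motif matches in capitals. The motifs searched, on both strands, were the CRE TGACGTCA, its half-site TGACG, the AP-1 site TGANTCA, the EGR site GCGNGGGCG and the CArG box of the serum response factor. A CRE contains 2 overlapping half-sites.
NR4A3, chr9:99821685-99821884, plus strand: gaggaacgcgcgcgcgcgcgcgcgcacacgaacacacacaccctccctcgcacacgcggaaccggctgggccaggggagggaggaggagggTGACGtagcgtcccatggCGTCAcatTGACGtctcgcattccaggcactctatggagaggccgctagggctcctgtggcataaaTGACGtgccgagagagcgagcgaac
FOSB, chr19:45467796-45467995, plus strand: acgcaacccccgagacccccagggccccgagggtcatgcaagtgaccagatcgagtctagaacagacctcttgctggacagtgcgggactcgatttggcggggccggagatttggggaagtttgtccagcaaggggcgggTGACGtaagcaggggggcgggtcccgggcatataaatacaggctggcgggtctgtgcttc
FOS, chr14:75278628-75278827, plus strand: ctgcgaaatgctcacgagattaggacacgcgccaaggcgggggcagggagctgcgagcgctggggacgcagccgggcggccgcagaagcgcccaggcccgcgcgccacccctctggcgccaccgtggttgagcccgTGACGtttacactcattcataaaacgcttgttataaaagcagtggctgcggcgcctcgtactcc
DUSP2, chr2:96145441-96145640, minus strand: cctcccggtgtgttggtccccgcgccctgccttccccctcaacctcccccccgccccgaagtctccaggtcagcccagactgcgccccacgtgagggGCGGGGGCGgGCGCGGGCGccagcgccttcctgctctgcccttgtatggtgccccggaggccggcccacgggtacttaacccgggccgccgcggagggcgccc
DUSP6, chr12:89352502-89352701, minus strand: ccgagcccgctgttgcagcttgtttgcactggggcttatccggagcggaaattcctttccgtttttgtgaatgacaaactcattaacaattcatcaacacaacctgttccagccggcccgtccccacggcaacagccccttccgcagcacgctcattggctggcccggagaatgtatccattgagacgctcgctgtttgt

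NR4A3 held 4 half-sites, the nearest 25 bases before the start, and FOSB and FOS held 1 each, at 60 and 64 bases. DUSP2 held no half-site and 2 EGR sites, at 103 and 93 bases, and DUSP6 held none of the motifs in this window. Over 35116 RefSeq promoters, counted in their full windows from 250 bases before to 50 bases after the start, 24.55% held the half-site, 9.43% the EGR site, 1.85% the full CRE, 7.71% the AP-1 site and 1.29% the CArG box. Of the 19 immediate-early factors with a promoter entry, 12 held a half-site in that window, as did 11 of 18 cholesterol and fatty acid genes and 8 of 18 feedback regulators. These are letter matches, and no factor's binding was measured.

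Negative regulators of growth factor signalling lay on both sides. DUSP6, a cytoplasmic phosphatase specific for ERK, stood at 14.03 and 32.8 CPM in TPA+H89, against 70.3 and 62.0 CPM in EGF+H89. Its log2 fold change was -1.49 ± 0.43 (SE, n = 2 each), with -2.32 in the pair with rRNA counts and -0.92 in the pair without. H89 alone stood at 39.0, 43.3 and 28.9 CPM, so DUSP6 lay within or below that range in TPA+H89 and above it in EGF+H89. SPRY2, a Sprouty inhibitor of receptor tyrosine kinase signalling, stood at 44.6 and 69.4 CPM in TPA+H89, against 33.2 and 39.6 CPM in EGF+H89. Its relative SPRY1 stood at 6.38 and 8.001 CPM in TPA+H89, against 16.1 and 14.5 CPM in EGF+H89, a log2 fold change of -1.08 ± 0.59. SPRY1 in H89 1 to 3 stood at 16.6, 16.6 and 6.92 CPM, so H89 3, with no mitogen, lay with TPA+H89. Its log2 fold change was 0.19 in a fit with the 4 TPA libraries and H89 3 taken as 1 run of sample numbers, and 0.53 with terms for the rRNA split and for runs of numbers together. Both fits were chosen after seeing the data. In the first, H89 3 was the only library of the run without TPA, so that value rests on H89 3. In the second, H89 3 was the only library without TPA that shared both run and rRNA class with TPA libraries. That value rests on H89 3 too, so the 2 fits are no separate evidence. SPRY4 did not separate the groups, at 28.2 and 51.9 CPM in TPA+H89, against 35.7 and 40.5 CPM in EGF+H89. DUSP1, a nuclear phosphatase of stress and mitogen kinases, stood at 186 and 426 CPM in TPA+H89, against 293 and 263 CPM in EGF+H89. DUSP5, which acts on nuclear ERK, stood at 39.2 and 75.4 CPM in TPA+H89, against 42.3 and 39.9 CPM in EGF+H89, and the early gene IER3 at 520 and 857 CPM in TPA+H89, against 525 and 553 CPM in EGF+H89. None of these 3 separated the groups. Of 21 feedback regulators, 4 lay higher and 6 lower without overlap, beside 18.1% and 18.4% of all tested genes. Of these regulators 0 were called, and their median log2 fold change was -0.09.

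Secreted factors and enzymes of the early response gave no common direction. TNFSF9, a ligand of the tumour necrosis factor family, stood at 6.56 and 6.63 CPM in TPA+H89, against 3.16 and 3.06 CPM in EGF+H89, a log2 fold change of 1.08 ± 0.53. IL6, an inflammatory cytokine, stood at 19.9 and 40.7 CPM in TPA+H89, against 77.2 and 67.03 CPM in EGF+H89, a log2 fold change of -1.24 ± 1.03. IL1B and BMP2 also lay lower in both TPA+H89 libraries, IL1B at 1.46 and 1.18 CPM against 3.21 and 3.76 CPM in EGF+H89, and BMP2 at 0.364 and 0.719 CPM against 1.99 and 1.49 CPM in EGF+H89. The values in TPA+H89 1 rest on 8 counts for IL1B and 2 for BMP2. H89 3 was the lowest H89-alone library at IL6, IL1B and BMP2, with BMP2 at 1.80, 1.71 and 0.339 CPM and IL6 at 26.04, 39.2 and 11.6 CPM in H89 1 to 3. In the same 2 fits with runs of sample numbers, the log2 fold change was 0.87 and 1.24 for BMP2 and 0.25 and 0.17 for IL6. Both fits set TPA against libraries without it only through H89 3, so these values are no separate evidence. LIF, a cytokine related to IL6, and HBEGF, which binds the EGF receptor as EGF does, overlapped between the groups. LIF stood at 29.5 and 112 CPM in TPA+H89, against 79.3 and 84.8 CPM in EGF+H89. HBEGF stood at 6.56 and 17.6 CPM in TPA+H89, against 8.68 and 10.4 CPM in EGF+H89. PTGS2, the inducible prostaglandin synthase, stood at 552 and 389 CPM in TPA+H89, against 380 and 299 CPM in EGF+H89. The protease inhibitor TIMP1 lay lower, at 173 and 468 CPM in TPA+H89 against 551 and 833 CPM in EGF+H89. In H89 1 to 3 TIMP1 stood at 561, 663 and 402 CPM. Of 23 cytokines and growth factors, 4 lay higher and 8 lower without overlap, with a median of -0.20, and of 16 proteases and prostaglandin and hyaluronan enzymes 5 lay higher and 4 lower, with a median of -0.15, beside 18.1% higher and 18.4% lower of all tested genes. H89 3 lay on the TPA+H89 side of both other H89 libraries at all 4 higher and all 8 lower cytokines and growth factors. Among the proteases and enzymes this held at 3 of the 5 higher and all 4 lower genes. None of the members of either list was called.

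NF-kappaB targets, genes of inflammatory and survival signalling, were mostly lower in TPA+H89. Of 20 members 18 had a negative log2 fold change, as did 46.5% of all tested genes. Of the members 13 lay lower in both TPA+H89 libraries and 0 lay higher, with 0 called and a median of -0.96. Over all tested genes 18.4% lay lower in both and 18.1% higher. TNFAIP2 stood at 41.4 and 50.6 CPM in TPA+H89, against 113 and 91.8 CPM in EGF+H89, a log2 fold change of -1.15 ± 0.57. NFKB2, a subunit of the factor itself, stood at 27.0 and 39.4 CPM in TPA+H89, against 64.4 and 64.5 CPM in EGF+H89. The interferon regulatory factor IRF1 stood at 37.5 and 67.3 CPM in TPA+H89, against 110 and 95.9 CPM in EGF+H89. TRAF1, an adaptor of tumour necrosis factor receptors, stood at 1.46 and 2.34 CPM in TPA+H89, against 4.61 and 4.27 CPM in EGF+H89. Its value in TPA+H89 1 rests on 8 counts. All 4 genes kept the groups apart.

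Genes of sterol and lipid synthesis and genes of the actin cytoskeleton were higher in TPA+H89. All 25 cholesterol and fatty acid synthesis genes had a positive log2 fold change, as did 50.4% of all tested genes. Of the 25, 24 lay higher in both TPA+H89 libraries, beside 18.1% of all tested genes, 0 were called, and the median was 1.05. HMGCS1, the enzyme that makes HMG-CoA for cholesterol synthesis, stood at 345 and 152 CPM in TPA+H89, against 86.4 and 75.0 CPM in EGF+H89, a log2 fold change of 1.62 ± 0.70. INSIG1, a sterol-sensing regulator of the pathway, stood at 234 and 398 CPM in TPA+H89, against 137 and 122 CPM in EGF+H89. FDPS stood at 170 and 48.2 CPM in TPA+H89, against 22.9 and 35.8 CPM in EGF+H89, and MVD, another mevalonate pathway enzyme, at 172 and 59.7 CPM in TPA+H89, against 34.4 and 42.7 CPM in EGF+H89. The groups did not overlap at these genes, but for FDPS and MVD most of the gap came from TPA+H89 1. Of 19 targets of the serum response factor (SRF) and its cofactor MRTF, all had a positive log2 fold change. Of the 19, 14 lay higher in both TPA+H89 libraries, beside the same 18.1%, 0 were called, and the median was 0.66. TAGLN, an actin-binding protein of contractile cells, stood at 1124 and 705 CPM in TPA+H89, against 349 and 359 CPM in EGF+H89, a log2 fold change of 1.37 ± 0.73. CNN1, a calponin, stood at 54.8 and 34.0 CPM in TPA+H89, against 16.95 and 21.9 CPM in EGF+H89, and ACTG2, a smooth muscle actin whose reads may be shared with near-identical actins, at 6.01 and 6.90 CPM in TPA+H89, against 0.995 and 0.747 CPM in EGF+H89. Of the 15 SRF and MRTF targets with a promoter entry, 7 held a CArG box in the 300-base window, beside 1.29% of all RefSeq promoters. The genes were listed as SRF and MRTF targets beforehand, so this count says nothing about TPA.

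One library without any mitogen already lay on the TPA+H89 side of these 3 lists. The sample names carry running numbers, and H89 3 belongs to the same run of numbers as TPA+H89 2, while H89 1 and H89 2 belong to the runs of EGF+H89 1 and EGF+H89 2. H89 3 lay above both other H89 libraries at 25 of 25 cholesterol and fatty acid genes and 19 of 19 SRF and MRTF targets, and below both at 16 of 20 NF-kappaB targets. HMGCS1 in H89 alone stood at 57.6, 56.2 and 214 CPM, and TAGLN at 368, 259 and 1114 CPM, with H89 3 the last value of each. The median log2 difference of TPA+H89 2 over H89 3 was -0.94 for the cholesterol and fatty acid list, -0.61 for the SRF and MRTF list and 0.31 for the NF-kappaB list. Over all tested genes H89 3 lay above both other H89 libraries at 38.2%, and among the 3360 genes higher in TPA+H89 without overlap at 66.1%. It lay below both at 34.5% of all tested genes and at 63.6% of the 3425 that were lower. The fit in which the 4 libraries with TPA and H89 3 were taken as 1 run gave medians of -0.51 for the cholesterol and fatty acid genes, -0.41 for the SRF and MRTF targets and -0.10 for the NF-kappaB targets. The immediate-early factors had a median of 0.39 there, and DUSP2 a log2 fold change of 1.66. In that fit H89 3 was the only library of the run without TPA, so the term for the run rested on it. These values thus depend on the H89 3 levels above and are no separate evidence. TPA+H89 1 and EGF+H89 2 carry the nearest numbers, though they differ in rRNA counts, and gave median log2 differences of 1.32, 0.98 and -1.14 for the 3 lists and of 3.34 for DUSP2. Between the libraries without rRNA counts, TPA and the run of sample numbers cannot be told apart for these lists.

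**Figure D2:**
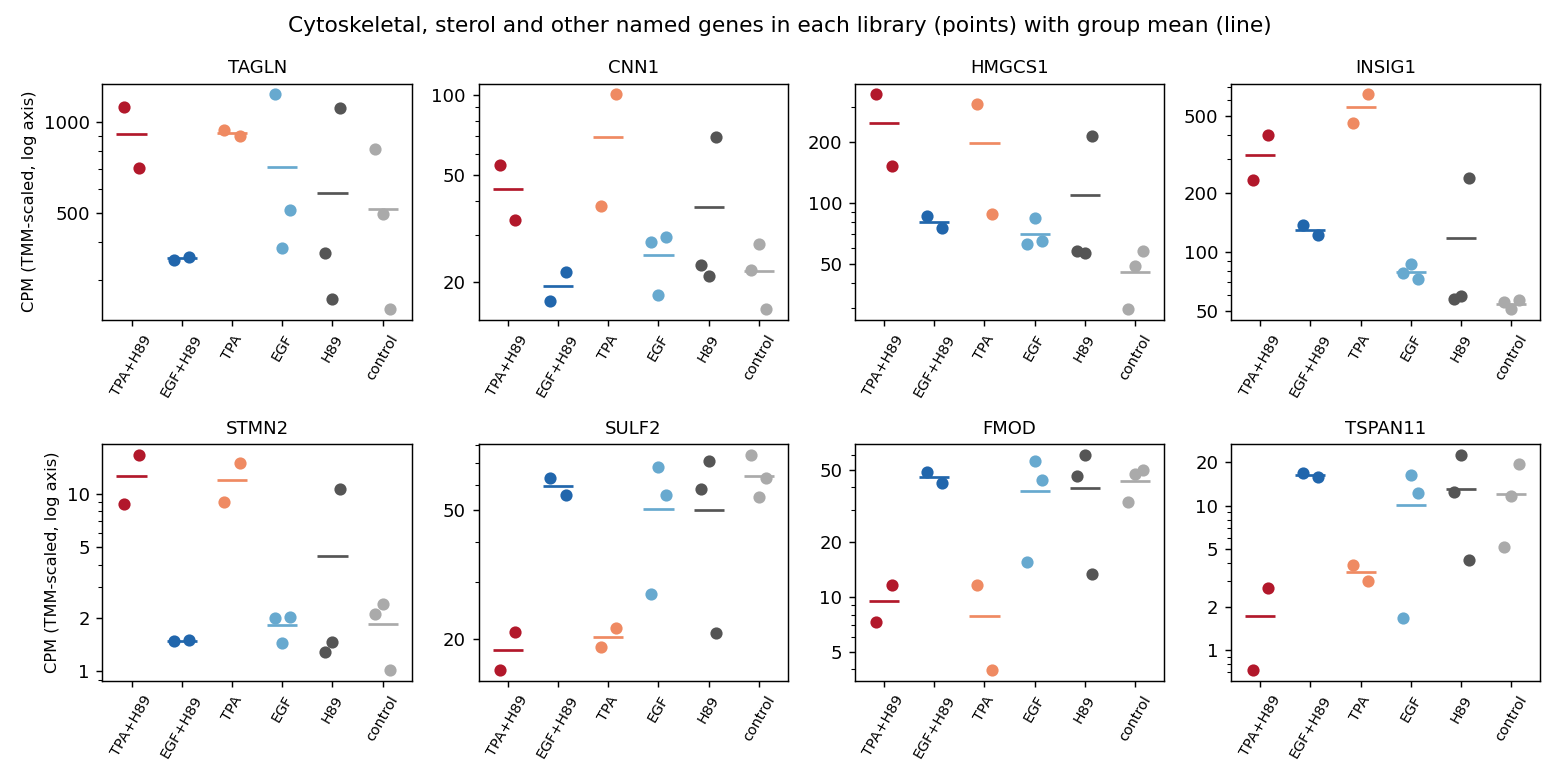
Each panel plots 1 gene in every distinct library as a point, in TMM-scaled CPM on a log axis, with a line at the group mean. In each panel 1 of the 3 H89-alone points, that of H89 3, stands away from the other 2 towards the TPA+H89 points, as for TAGLN at 1114 CPM beside 368 and 259 CPM.

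The genes with the lowest unadjusted p values were of mixed kinds. Higher in TPA+H89 were ACBD7, an acyl-CoA binding protein, at 3.10 and 1.98 CPM against 0.271 and 0.396 CPM in EGF+H89, and STC2, a secreted glycoprotein, at 673 and 340 CPM against 190 and 195 CPM in EGF+H89. ACBD7 in H89 1 to 3 stood at 1.06, 1.44 and 0.861 CPM, above EGF+H89 and below TPA+H89. In TPA alone it stood at 0.867 and 0.851 CPM, against 0.468, 0.514 and 0.547 CPM in EGF alone. STC2 was high in TPA alone, at 571 and 533 CPM. STC2 in H89 1 to 3 stood at 220, 296 and 419 CPM, so H89 3 lay above TPA+H89 2. The hair keratin-associated gene KRTAP1-5 stood at 28.2 and 13.5 CPM in TPA+H89, against 3.21 and 7.47 CPM in EGF+H89, and its reads may be shared with close relatives. KRTAP1-5 in H89 1 to 3 stood at 5.76, 11.5 and 10.7 CPM. STMN2, a stathmin that binds tubulin, stood at 8.75 and 16.6 CPM in TPA+H89, against 1.49 and 1.49 CPM in EGF+H89, but H89 3 held 10.7 CPM where H89 1 and H89 2 held 1.29 and 1.47 CPM. With the term for the split by rRNA counts, CLDN4, HMOX1 and DLGAP5 joined them by the same rule. CLDN4, a tight junction claudin, stood at 5.47 and 25.4 CPM in TPA+H89, against 1.76 and 2.51 CPM in EGF+H89. HMOX1, the haem oxygenase of the oxidative stress response, stood at 37.5 and 102 CPM in TPA+H89, against 17.05 and 28.4 CPM in EGF+H89. DLGAP5, a spindle protein, stood at 12.9 and 10.4 CPM in TPA+H89, against 4.30 and 3.41 CPM in EGF+H89. In H89 alone CLDN4 stayed at or below 2.68 CPM and HMOX1 at or below 12.1 CPM, while DLGAP5 reached 8.80 CPM, nearer to TPA+H89.

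The genes lowest in TPA+H89 by the same rule were largely ones at which H89 3 was low as well. SULF2, an extracellular heparan sulphatase, stood at 16.04 and 21.0 CPM in TPA+H89, against 62.8 and 55.9 CPM in EGF+H89, with 58.3, 71.1 and 20.8 CPM in H89 1 to 3. FMOD, the collagen-binding proteoglycan fibromodulin, stood at 7.29 and 11.6 CPM in TPA+H89, against 48.2 and 42.2 CPM in EGF+H89, with 45.9, 60.0 and 13.4 CPM in H89 1 to 3. CCL7, a monocyte chemokine, stood at 0 and 0.642 CPM in TPA+H89, against 9.68 and 10.1 CPM in EGF+H89, with 11.4, 13.6 and 0.678 CPM in H89 1 to 3. At all 3 genes TPA+H89 and H89 3 lay together, away from EGF+H89 and the other H89 libraries, and TSPAN11, CPXM2 and CAMK1D were alike in this. NTRK2, the receptor of brain-derived neurotrophic factor, stood at 1.09 and 1.44 CPM in TPA+H89, against 4.79 and 3.96 CPM in EGF+H89. KAT2A, the histone acetyltransferase GCN5, stood at 9.11 and 16.7 CPM in TPA+H89, against 34.1 and 28.9 CPM in EGF+H89. BATF2, a basic leucine zipper factor, stood at 1.82 and 3.28 CPM in TPA+H89, against 8.82 and 7.21 CPM in EGF+H89, and CFI, complement factor I, at 17.9 and 10.0 CPM in TPA+H89, against 39.4 and 32.5 CPM in EGF+H89. The groups did not overlap at any of these 4 genes, and H89 3 was the lowest of the H89-alone libraries at each. H89 1 to 3 stood at 2.66, 4.01 and 1.92 CPM for NTRK2 and at 34.1, 23.3 and 15.6 CPM for KAT2A. They stood at 4.03, 5.56 and 3.02 CPM for BATF2 and at 30.3, 32.6 and 19.9 CPM for CFI. H89 3 lay within the range of TPA+H89 at KAT2A and BATF2. Several values in TPA+H89 1 rest on few counts, 0 for CCL7, 4 each for TSPAN11 and CAMK1D, 6 for NTRK2 and 10 for BATF2.

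Receptors and kinases that carry the signals had list medians near 0, with single members apart. Of 19 phorbol ester receptors and protein kinase C genes, 5 lay higher and 5 lower without overlap, with a median log2 fold change of 0.03. PRKD1, protein kinase D, stood at 46.6 and 33.6 CPM in TPA+H89, against 27.5 and 25.3 CPM in EGF+H89, and RASGRP1, a RAS activator with a phorbol ester binding domain, at 12.2 and 6.33 CPM in TPA+H89, against 4.39 and 3.76 CPM in EGF+H89. Both genes kept the groups apart, and H89 3, at 44.0 and 12.6 CPM, lay with TPA+H89. Of 18 genes of the EGF receptor family and its adaptors, 5 lay higher and 2 lower, with a median of 0.05, and of 18 MSK, RSK and PKA kinase genes 7 lay higher and 0 lower, with a median of 0.08. Of all tested genes 18.1% lay higher and 18.4% lower, and at 6 of the 7 kinase genes H89 3 lay above both other H89 libraries. No member of these lists was called. The median was -0.11 over 14 cAMP and CREB targets, 0.08 over 16 TGF-beta signal brakes and targets, 0.05 over 21 FOXO and growth-arrest genes and 0.10 over 13 early mRNA decay and cell-death factors. The matrix genes gave 9 higher and 5 lower of 20, with a median of 0.13, among them POSTN, the matricellular protein periostin, at 1578 and 420 CPM in TPA+H89, against 197 and 252 CPM in EGF+H89. POSTN in H89 1 to 3 stood at 192, 254 and 635 CPM, so H89 3 lay above TPA+H89 2. H89 3 lay on the TPA+H89 side of both other H89 libraries at 8 of the 9 higher and all 5 lower matrix genes.

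Histone and small structured RNA genes stood apart in 1 library. HIST1H4C, which encodes histone H4, stood at 290 and 38.9 CPM in TPA+H89, against 36.3 and 42.2 CPM in EGF+H89. The list of 13 histone genes had a median log2 difference of 1.11 in the pair with rRNA counts and -0.31 in the pair without, and 5 small structured RNAs had 1.78 and -0.40. Both lists were high in TPA+H89 1, the library of lowest depth and highest RMRP share, and not in TPA+H89 2. The part of that library in the histone values was not tested.

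**Figure D3:**
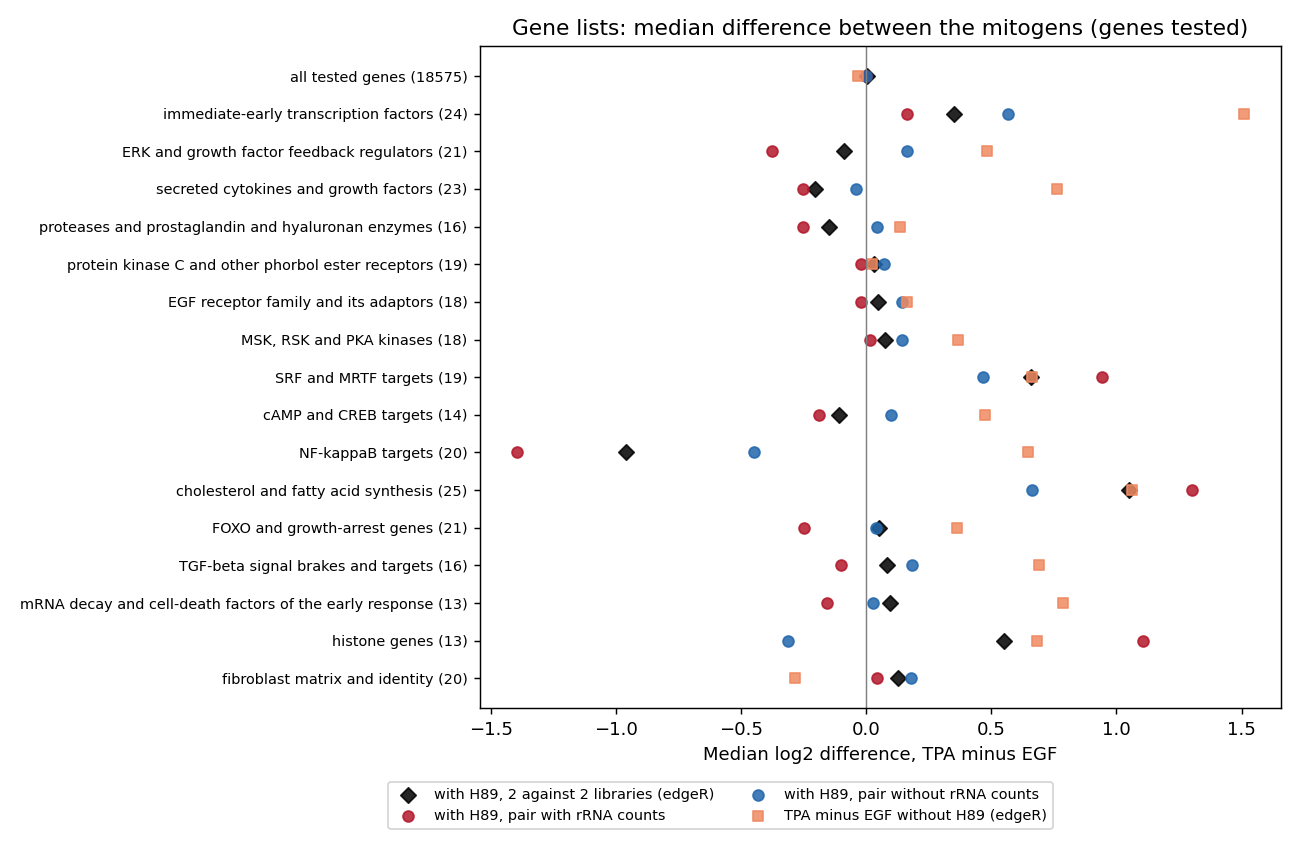
Points give, for each gene list with its number of tested genes, the median log2 difference of TPA over EGF: with H89 over both pairs of libraries (diamonds), in the pair with rRNA counts and the pair without (circles), and without H89 (squares). The cholesterol and fatty acid genes lie to the right under each measure, the NF-kappaB targets lie to the left with H89 (median -0.96) and to the right without it (0.64), and the histone genes differ in sign between the pairs. Without H89 the median level of the NF-kappaB targets was 32.8 and 54.8 CPM in TPA 1 and 2. In EGF 1 to 3 it was 9.57, 31.4 and 25.1 CPM, so TPA 1 lay near EGF 2. Of the 20 targets 5 lay higher there without overlap and 1 lower, beside 9.71% and 11.1% of all tested genes.

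The same mitogens had also been compared without H89, in other libraries. There edgeR's quasi-likelihood test called 0 of 18575 genes (0%), with 2480 at an unadjusted p under 0.05 (13.4%), and with the term for the split by rRNA counts it called 38 higher (0.205%) and 24 lower (0.129%) in TPA. DESeq2 called 170 higher (0.915%) and 130 lower (0.7%). Both TPA libraries lay above all 3 EGF libraries at 1803 genes (9.71%) and below them at 2062 (11.1%). Of the 24 immediate-early factors, 18 lay higher in TPA and 0 lower, with a median log2 fold change of 1.51, where TPA+H89 against EGF+H89 gave 0.35. JUNB stood at 790 and 8108 CPM in TPA, against 252, 426 and 643 CPM in EGF, so the group difference rests largely on TPA 2. IER3 stood at 683 and 3631 CPM in TPA, against 83.4, 269 and 357 CPM in EGF, and DUSP1 at 772 and 2839 CPM in TPA, against 495, 530 and 436 CPM in EGF. These genes, which did not separate TPA+H89 from EGF+H89, separated TPA from EGF, with TPA 2 far above TPA 1 at each. DUSP2 stood at 54.0 and 94.9 CPM in TPA, against 12.5, 3.27 and 4.12 CPM in EGF, a log2 fold change of 3.48 ± 0.72 beside 3.19 ± 0.83 with H89.

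The difference between the 2 comparisons was itself tested. For the interaction edgeR's quasi-likelihood test called 0 genes (0%), with 554 at an unadjusted p under 0.05 (2.98%) and a lowest adjusted p of 1.00, and DESeq2 called 0 (0%) with 755 (4.06%). The interaction, the log2 fold change with H89 minus that without, was -3.29 ± 1.16 for JUNB, -2.84 ± 1.13 for IER3, -1.75 ± 0.69 for DUSP1 and -1.88 ± 0.83 for NR4A2. It was -0.30 ± 1.04 for DUSP2, -1.22 ± 0.66 for NR4A3 and -0.40 ± 1.02 for NR4A1. The values for JUNB, IER3, DUSP1 and NR4A2 exceeded 2 standard errors and those for the other 3 did not, and none passed the adjusted test. SPRY2 and IRF1, named above, also exceeded 2 standard errors, at -0.92 ± 0.39 and -1.47 ± 0.67, and neither passed. ZNF93, a zinc finger gene, was among the 5 genes of lowest unadjusted p for the interaction. It stood at 1.82 and 1.66 CPM in TPA+H89, against 0.769 and 1.41 CPM in EGF+H89, and at 1.12 and 0.868 CPM in TPA, against 2.74, 4.67 and 4.93 CPM in EGF. Across the 13231 genes with a mean of at least 1 CPM, the log2 fold changes with and without H89 had the same sign at 59.1%, with Pearson's r of 0.09 and Spearman's rho of 0.22, given as a description since genes are not replicates and libraries of both comparisons share runs of numbers and the split by rRNA counts. Between single pairs, with and without H89, the libraries with rRNA counts gave an r of 0.60, a rho of 0.60 and the same sign at 72.5%, and those without gave an r of 0.29, a rho of 0.17 and the same sign at 54.3%.

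The 2 pairs of libraries within the H89 comparison resembled each other little across genes. Over the same 13231 genes, the log2 differences of the pair with rRNA counts and of the pair without had an r of 0.16, a rho of 0.11 and the same sign at 54.0%. Their standard deviations over genes were 0.93 and 0.41. The pair without rRNA counts resembled more the difference between H89 3 and H89 2, which lacks any mitogen, with an r of 0.43, a rho of 0.37 and the same sign at 64.3%; EGF+H89 2 and H89 2 share 1 run of numbers and TPA+H89 2 and H89 3 another.

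**Figure D4:**
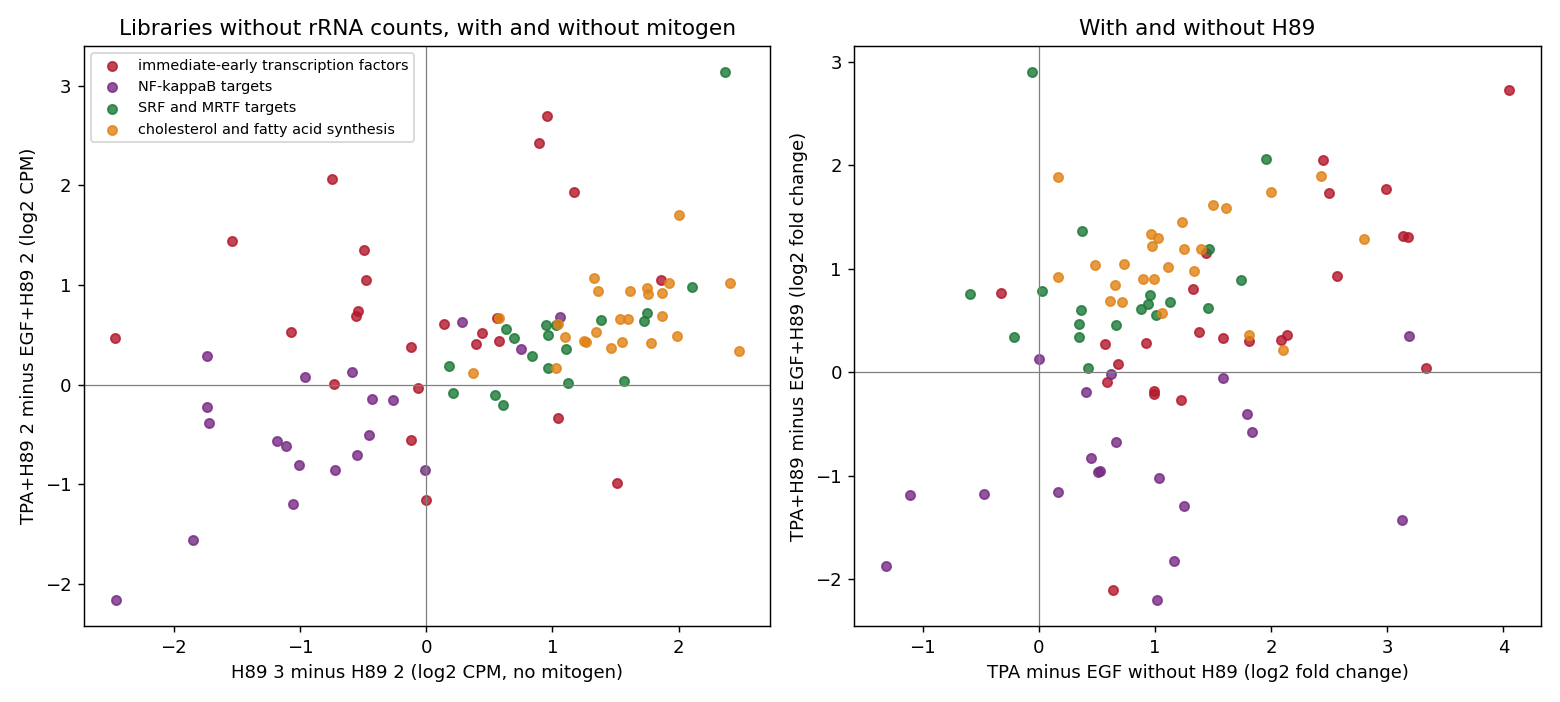
Points are the tested members of 4 gene lists. On the left, the log2 CPM difference of TPA+H89 2 over EGF+H89 2 is plotted against that of H89 3 over H89 2, where the cholesterol and fatty acid genes and most SRF and MRTF targets lie at upper right and most NF-kappaB targets at lower left, while immediate-early factors lie on both sides of the vertical line, mostly above 0. On the right, the log2 fold change with H89 is plotted against that without, where most immediate-early factors lie at right and nearer to 0 with H89.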

How the data were processed

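The deposited file holds raw counts, whole numbers of reads for each of 28374 gene symbols that the authors had not normalized. Per the labels' protocols, ribosomal RNA was removed before strand-specific libraries were prepared, and several sequencers are named with none tied to a sample. HOMER and the builds hg19 and GRCh37 are named in the submitters' processing notes; neither aligner nor annotation is given in the sources used here. Replicates were numbered in accession order, so equal numbers pair nothing. Control 3 and control 4 had the same count at 100% of 19340 detected genes and were used once, which left 15 libraries.

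All 15 were fitted together in R 4.3.3 with edgeR 4.0.16 (filterByExpr with a smallest count of 10, TMM scaling, a term per group, the quasi-likelihood test), with Benjamini-Hochberg adjustment over 18575 genes and a threshold of 0.05. Differences between single libraries are of log2 CPM, calculated with 2 as prior count. The scripts were tested on simulated data. Alternatives were DESeq2 1.42.0, its size factor method in edgeR, 2 filters, only the compared groups, a term for the technical split, a block for runs of sample numbers, and leaving out libraries. The technical split was read from the counts: control 1 and EGF 1 had more genes with a count of 1 than of 2, the libraries with RNR1 and RNR2 counts formed a class and the rest another.

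Named genes were up to 12 per direction among called genes without overlap and with a mean of at least 1 CPM, up to 10 with the technical term, otherwise those of lowest p up to 6, up to 4 per list in order of p, preset early genes and 5 of lowest interaction p. The comparison, the lists and the alternatives were chosen with earlier results of these data known, so their counts are no independent evidence. Promoter sequences came from RefSeq on GRCh38.p14, matched by symbol, while the counts are on hg19; no coordinate was converted. Chromosomal positions of the other genes were not analysed here.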

Additional observations from a re-analysis of the deposited data

How the results depend on the processing

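None of the 62 gene values for TPA+H89 against EGF+H89 was called under any of 14 other settings, and 35 of the genes had the same sign under all of them. Of 868 values, 818 kept the sign and 50 did not. The number of genes called between TPA+H89 and EGF+H89 was 0 and became 1 only with a replicate block for the runs of sample numbers (CRSP8P, log2 fold change 7.10 ± 0.80, edgeR adjusted p = 0.00790), and leaving out each library gave 0 to 0. For TPA against EGF it was 0 and became 300 with DESeq2, 62 with the term for the technical split, 10 with the replicate block and 178 with the technical term and the block together, and leaving out each library gave 0 to 1165, the highest without TPA 1. For the interaction it was 0 and became 69 with the technical term and the block together, and leaving out each library gave 0 to 0. With the term for the technical split, the log2 fold change with the other sign was -0.20 for JUNB. With the replicate block for runs of numbers, the log2 fold change with the other sign was -0.51 for DUSP1, -0.77 for HBEGF, -0.35 for IER3, -1.01 for JUNB and -0.0942 for SPRY4. With the 4 TPA libraries and H89 3 as 1 run, the log2 fold change with the other sign was 0.87 for BMP2, -0.47 for CNN1, 0.11 for CPXM2, -0.40 for DUSP1, -1.46 for HBEGF, -0.29 for HMGCS1, 0.25 for IL6, -0.75 for INSIG1, -0.60 for MVD, -0.16 for MYC, -0.0268 for PRKD1, 0.19 for SPRY1 and -0.49 for TAGLN. With the technical term and the replicate block together, the log2 fold change with the other sign was 1.24 for BMP2, -0.26 for CNN1, 0.40 for CPXM2, -0.91 for FDPS, -1.11 for HBEGF, -1.14 for HMGCS1, 0.17 for IL6, -0.48 for INSIG1, 0.035 for IRF1, 0.25 for JUN, -0.90 for MVD, -0.72 for POSTN, -0.25 for PRKD1, -0.54 for RASGRP1, -0.68 for RMRP, 0.53 for SPRY1, 0.0949 for SULF2 and -0.71 for TAGLN. Leaving out each library gave -0.0165 to 1.32 for ATF3, -0.58 to 0.63 for DUSP1, -0.0722 to 0.88 for DUSP5, -0.55 to 0.89 for HBEGF, -0.00437 to 2.88 for HIST1H4C, -0.0553 to 0.68 for IER3, -0.55 to 0.26 for JUN, -0.97 to 0.64 for JUNB, -1.48 to 0.46 for LIF, -0.0907 to 2.94 for RMRP and -0.43 to 0.46 for SPRY4. In the fit with the 4 TPA libraries and H89 3 as 1 run, the term for the run rested on H89 3, its only library without TPA. With the technical term and the block together, TPA was likewise set against libraries without it only through H89 3. The sign changes in those fits are therefore no separate evidence. The cause of the sign changes under any setting was not tested. Equal replicate numbers pair no samples, so the block used runs of sample numbers instead. With 2 libraries a group, 1 of them at 7527026 counts, differences far larger than the median standard error, 0.43, were not called. An example is DUSP2, with a log2 fold change of 3.19 ± 0.83 in the main fit.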
